A study of Mus musculus with 16 samples.

Results

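The mouse genes whose symbol is Zfp followed only by a number were followed through a stepwise induction of pluripotent cells. The platform annotation named 257 such genes once Zfp42 and Zfp296 were left out. A gene was kept when a probe for it passed the detection limit, a p-value under 0.01, on 4 or more of the 16 arrays, and of several such probes the one with the highest mean signal stood for the gene. The detection p-value sets a probe's signal against the negative-control probes of its own array. This kept 163 of the 257 numbered Zfp genes, among 9455 genes tested in all. Of the 94 genes not kept, 76 were detected on 0 arrays, 10 on 1 array, 3 on 2 arrays and 5 on 3 arrays, and a gene below the limit is not shown to be off. Just inside the limit, Zfp367, Zfp647 and Zfp738 were detected on 4 arrays, with mean levels of 5.35, 5.52 and 5.19 on the log2 scale. Just outside it, Zfp109, Zfp217, Zfp622, Zfp825 and Zfp846 were detected on 3 arrays, with mean levels of 5.39, 5.45, 5.51, 5.30 and 5.38.

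Total RNA of 4 kinds of mouse cells was measured on single-colour Illumina bead arrays, with 4 arrays per group from separate dishes. MEF are embryonic fibroblasts of strain CD1, the cells the induction starts from, grown in 10% serum. OKM cells are the intermediate stage, also CD1 and titled 3F-CD1, and iPS cells are induced pluripotent stem cells, CD1 and titled 3F-SOX2-CD1. ES cells are embryonic stem cells of strain 129, titled R26. The OKM, iPS and ES cells shared one culture, with 15% serum and 10 ng/ml of the cytokine LIF on a layer of mitomycin C-treated MEF, so RNA of feeder fibroblasts can be part of what was measured in these 3 groups. The labels do not spell out the abbreviation OKM, how the factors were delivered, whether each group is 1 line or what the dishes shared, so the p-values cover the spread between these dishes only. Strain and line differ between ES cells and every other group, and their effects on a difference from ES cells cannot be told apart. Culture differs between MEF and the other 3 groups, so effects of culture and of cell kind on a difference from MEF cannot be told apart. In bulk RNA, fewer cells of a kind and less RNA per cell cannot be told apart either.

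Most numbered Zfp genes encode proteins built from runs of C2H2 zinc fingers, short folds that each hold a zinc ion and together read a stretch of DNA. In many of them the fingers are joined to a KRAB domain, which binds the co-repressor Trim28 (KAP1) and through it brings the histone methyltransferase Setdb1, HP1 proteins and DNA methylation to the bound site. In mouse ES cells this machinery is known for silencing endogenous retroviruses. Such genes multiplied by tandem duplication and lie in clusters, so that neighbours can be near copies of each other, and a probe may then read more than its own gene. The number in a symbol records naming and not kinship, and a few members are of other kinds, such as Zfp36, an RNA-binding protein with CCCH fingers.

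The arrays were alike in quality. Between 44.9% and 49.1% of probes were detected per array, 126 to 155 of the 163 members were detected on each, and arrays of 1 group correlated between 0.970 and 0.990 over the members. Defining markers were set against the labels. The summed normalized intensity of 12 measured fibroblast markers was 128184 to 140717 in MEF and 21746 to 26123 in OKM cells. It was 22174.5 to 24953 in iPS cells and 4970 to 13756 in ES cells. Col1a2 and Col3a1 were undetected on all iPS and ES arrays. The iPS arrays all detected the other 10 of the 12, and 8 were detected on all 4 ES arrays. The sum of 11 pluripotency markers was 287 to 352 in MEF, where all 11 were undetected, 5738 to 6439 in OKM cells, 95432 to 97367 in iPS cells and 120610 to 130737 in ES cells. Macrophage and blood transcripts summed over 5 measured markers to 564 to 895 in OKM cells, where C1qa, C1qb, C1qc and Tyrobp were undetected on all 4 arrays, against 13917 to 14789 in MEF.

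The promoters of 5 members that carry the contrasts described here are shown, from RefSeq on build GRCm38.p6, each 300 bases from 250 before to 50 after the annotated start, with every CG dinucleotide in capitals. Zfp985 (chr4:147553027-147553326, plus strand) and Zfp979 (chr4:147642459-147642758, minus strand) lie in 1 cluster and rose at different stages.
Zfp985: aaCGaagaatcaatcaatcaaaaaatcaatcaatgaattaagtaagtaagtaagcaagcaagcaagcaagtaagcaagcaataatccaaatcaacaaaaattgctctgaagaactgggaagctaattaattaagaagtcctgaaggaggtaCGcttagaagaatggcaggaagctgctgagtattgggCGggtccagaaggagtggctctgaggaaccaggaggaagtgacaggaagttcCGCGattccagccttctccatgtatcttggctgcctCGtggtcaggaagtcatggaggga
Zfp979: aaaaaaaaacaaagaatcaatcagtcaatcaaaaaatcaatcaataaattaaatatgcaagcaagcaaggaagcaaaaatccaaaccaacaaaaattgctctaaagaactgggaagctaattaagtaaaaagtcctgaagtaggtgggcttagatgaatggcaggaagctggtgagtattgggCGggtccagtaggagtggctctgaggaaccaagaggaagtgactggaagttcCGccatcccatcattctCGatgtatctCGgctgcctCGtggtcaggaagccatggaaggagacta
Aligned over 305 columns, these starts were 83.3% identical, with 41 mismatches and 10 gap columns, while the other 9 pairings of the 5 promoters shown gave 44.4% to 49.1%. Zfp459 (chr13:67421369-67421668, minus strand) belongs to a cluster on chromosome 13 and was first detected in iPS cells.
Zfp459: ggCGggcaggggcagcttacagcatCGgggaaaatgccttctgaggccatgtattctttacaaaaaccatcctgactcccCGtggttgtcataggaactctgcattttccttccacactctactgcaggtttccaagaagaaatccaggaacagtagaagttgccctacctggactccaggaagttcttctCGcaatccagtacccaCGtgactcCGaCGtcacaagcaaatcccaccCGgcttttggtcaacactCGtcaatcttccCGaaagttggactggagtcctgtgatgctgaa
Zfp692 (chr11:58306819-58307118, plus strand) and Zfp672 (chr11:58323316-58323615, minus strand, the first of 3 annotated windows) are next to each other, and between OKM cells and MEF one rose while the other fell.
Zfp692: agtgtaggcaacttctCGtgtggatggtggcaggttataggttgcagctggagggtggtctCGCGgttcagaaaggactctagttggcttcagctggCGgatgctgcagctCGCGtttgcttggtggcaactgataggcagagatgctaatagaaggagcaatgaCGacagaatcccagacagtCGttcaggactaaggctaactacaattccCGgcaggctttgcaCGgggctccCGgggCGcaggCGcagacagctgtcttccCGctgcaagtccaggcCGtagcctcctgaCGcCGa
Zfp672: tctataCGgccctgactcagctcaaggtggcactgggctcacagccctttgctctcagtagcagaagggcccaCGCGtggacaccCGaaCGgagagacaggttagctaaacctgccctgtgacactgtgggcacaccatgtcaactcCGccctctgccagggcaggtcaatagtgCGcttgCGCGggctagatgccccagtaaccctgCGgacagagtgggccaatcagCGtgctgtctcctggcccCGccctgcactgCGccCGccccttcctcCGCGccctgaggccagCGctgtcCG
The windows of Zfp692 and Zfp672 hold 17 and 18 CG dinucleotides, and those of Zfp985, Zfp979 and Zfp459 hold 6, 5 and 10. Promoter windows were found for 129 of the 163 members, 160 windows in all. Their median was 17 CG dinucleotides, against 7 over all 32851 windows of the table, and 78.8% of member windows held at least 10, against 43.5% of all windows. All windows cover 27025 genes, whether or not they were detected here, whereas every member was detected. Detection and gene family therefore cannot be told apart in this contrast or in the motif shares below. The 18 windows of members undetected on all MEF arrays had a median of 13.5, and the 124 windows of members detected on all 4 MEF arrays a median of 18. The octamer letters ATGCAAAT, searched on both strands, stood in 3.13% of member windows and 1.74% of all windows, the letters AAGATGGC in 6.88% and 2.75%, and TATAAA in 6.88% and 13.6%. None of these 3 motifs was found in the 5 windows shown, which says only that these letters are not in those windows.

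The spread of the members over the 4 groups is given beside that of all genes tested. Median log2 levels of the members were 7.16 in MEF, 7.33 in OKM cells, 7.55 in iPS cells and 7.45 in ES cells. Those of all genes tested were 8.51, 8.54, 8.54 and 8.48, so the members were dimmer. The part of this difference in level in the shares and spans set against all genes, here and below, was not tested. A change was called at a Benjamini-Hochberg adjusted p under 0.05 in limma, fitted over all 9455 genes, together with a difference of at least 2-fold. Over the 4 group means, the median member spanned 1.11 on the log2 scale and the median of all genes tested 1.30. A span over 1 was reached by 92 members (56.4%, against 63.5% of all genes), and a span over 3 by 11 members (6.75%, against 12.7%). Among members, 26 spanned less than 0.5 (15.95%, against 11.6% of all genes). The highest mean was in MEF for 53 members (32.5%, against 34.7% of all genes), in OKM cells for 36 (22.1%, against 21.2%), in iPS cells for 22 (13.5%, against 9.34%) and in ES cells for 52 (31.9%, against 34.7%). All 4 arrays detected 124 members in MEF, 136 in OKM cells, 137 in iPS cells and 115 in ES cells, and 98 members were detected on all 16 arrays. There were 32 members undetected on all arrays of at least 1 group, and 25 of them were detected on all 4 arrays of another.

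**Figure D1:**
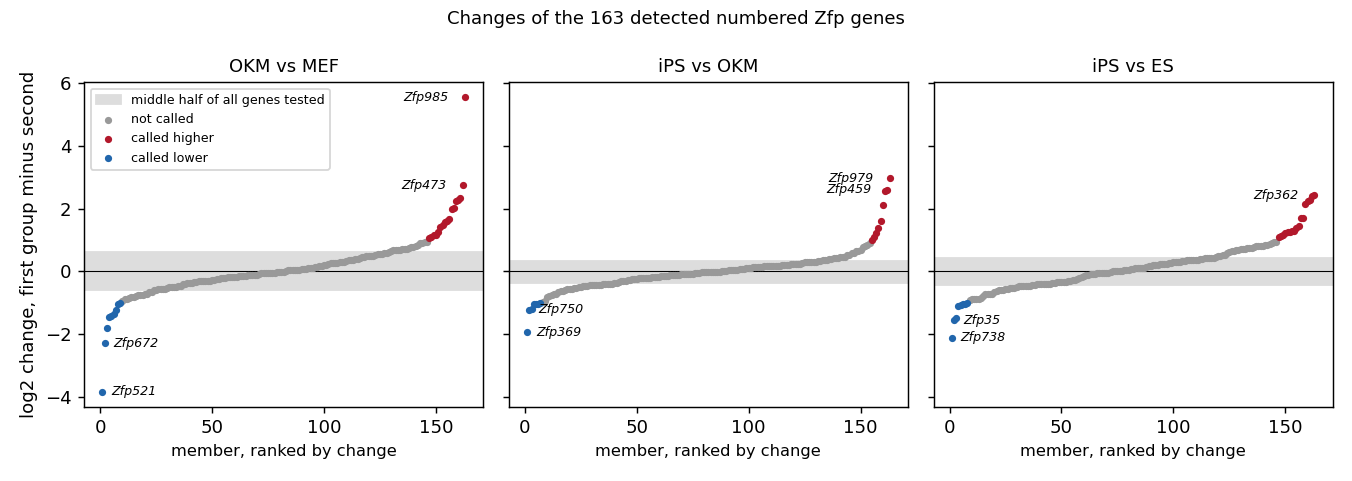
Log2 change of each of the 163 members, ranked, for OKM cells over MEF, iPS cells over OKM cells and iPS cells over ES cells, with called changes in colour and the middle 50% of all 9455 genes as a grey band. Most members lie near 0, the tails run to 5.54 (Zfp985) and -3.82 (Zfp521) in OKM cells over MEF, and the step from OKM to iPS cells has the shortest tails below 0, down to -1.92 (Zfp369).

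The first comparison asks what changed between the starting fibroblasts and the intermediate cells. In OKM cells over MEF, 17 members rose and 9 fell, 26 of 163 or 15.95%, while the share called over all genes was 31.9%. By direction the background was 16.1% higher and 15.8% lower. The median change was -0.01 for the members and 0.02 for all genes, and the median size of change was 0.45 against 0.60.

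Zfp985, a cluster gene on chromosome 4, gave the largest change of any member. Its log2 levels were 10.50, 10.50, 10.06 and 10.03 on the OKM arrays, against 4.87, 4.71, 4.62 and 4.74 on the MEF arrays, where it was detected on 0 of 4. The groups are far apart, with every OKM array over 5 log2 units above every MEF array. The change was 5.54 ± 0.14 (SE, adjusted p = 3.04e-16). Because MEF gave only a limit, the ratio is stated as at least 22.9-fold, the mean of the brighter group over the lowest level at which probes were detected on each dim array, or the probe's own level where that was higher. In iPS cells it read 10.24, 10.14, 9.93 and 9.96, and ES cells gave 10.28, 10.07, 10.57 and 10.00. The 3 later groups overlap, with an iPS minus OKM difference of -0.21 (adjusted p = 0.219) and an iPS minus ES difference of -0.16 (adjusted p = 0.319).

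Zfp473 encodes the mouse counterpart of the U7 snRNP-associated protein ZFP100, which takes part in the 3′ processing of histone mRNA. It read 7.31, 7.50, 7.50 and 7.62 in OKM cells and 4.77, 4.82, 4.76 and 4.61 in MEF, where it was undetected on all 4 arrays. The groups do not overlap, and the change was 2.74 ± 0.11 (SE, adjusted p = 1.65e-13), at least 3.31-fold. Its other kept probe rose by 1.43 on the log2 scale.
Zfp819, known from pluripotent mouse cells as a KRAB protein that works with Trim28, gave 6.74, 6.56, 6.75 and 6.66 in OKM cells against 4.63, 4.74, 4.52 and 4.93 in MEF, again undetected there. It rose by 1.97 ± 0.17 (SE, adjusted p = 7.31e-09), at least 1.89-fold. Both genes rose again in the next step, to iPS levels of 8.56 ± 0.17 for Zfp473 and 8.04 ± 0.10 for Zfp819 (SD, n = 4 each).

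Zfp941 and Zfp365 were already detected in MEF. Zfp941 had levels of 8.93, 9.06, 8.91 and 9.14 in OKM cells and 6.41, 6.75, 6.51 and 7.08 in MEF, a rise of 2.32 ± 0.13 (SE, adjusted p = 2.77e-11). The means of the later groups were 8.94 ± 0.19 in iPS cells and 9.04 ± 0.10 in ES cells (SD, n = 4 each). For Zfp365, described in DNA damage responses and centrosome function, the OKM arrays gave 8.63, 9.10, 8.74 and 8.88 and the MEF arrays 6.53, 6.52, 6.34 and 6.84. It rose by 2.28 ± 0.15 (SE, adjusted p = 3.30e-10), and the OKM level was the highest of the 4 groups, with 7.89 ± 0.29 in iPS cells and 7.41 ± 0.22 in ES cells (SD, n = 4 each). The step down to iPS cells, -0.95 (adjusted p = 5.54e-05), did not reach 2-fold.

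A further 3 members were high in OKM cells and called lower again in iPS cells. Zfp750, a regulator of epidermal differentiation, gave 6.87, 6.78, 7.08 and 6.84 in OKM cells against 4.69, 4.54, 4.68 and 4.69 in MEF, where it was undetected, a change of 2.24 ± 0.18 (SE, adjusted p = 4.34e-09) or at least 2.20-fold. Its iPS levels of 6.11, 5.54, 5.32 and 5.74 all lie below the OKM arrays, and it fell by 1.22 on the log2 scale (adjusted p = 2.36e-05). Epithelial markers also differed between these groups, with a sum over 4 measured markers of 2385 to 2924 in OKM cells against 173 to 211 in MEF, but 2316 to 3035 in iPS cells, and their part in the result was not tested.
Zfp369, a protein that binds the neurotrophin receptor p75, read 7.33, 7.69, 7.67 and 7.62 in OKM cells and 5.54, 5.44, 5.95 and 5.33 in MEF, and it rose by 2.01 ± 0.25 (SE, adjusted p = 1.16e-06). In iPS cells it read 5.63, 5.43, 5.95 and 5.60, overlapping the MEF arrays, a change from OKM cells of -1.92 ± 0.25 (SE, adjusted p = 4.80e-06). ES cells gave 5.00, 5.01, 5.46 and 6.51, so no group but OKM held it above 7.
Zfp870 rose by 1.62 ± 0.13 (SE, adjusted p = 3.83e-09), with 7.99, 7.94, 7.84 and 7.79 in OKM cells against 6.03, 6.16, 6.47 and 6.42 in MEF. Its later fall to 7.27, 6.75, 6.68 and 6.77 in iPS cells sat at the 2-fold line (-1.02, adjusted p = 3.88e-06). That call ended when any of 4 single arrays was left out, at -0.96 without iPS replicate 3, -0.99 without iPS replicate 4, -0.98 without iPS replicate 2 and -0.99 without OKM replicate 1.

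**Figure D2:**
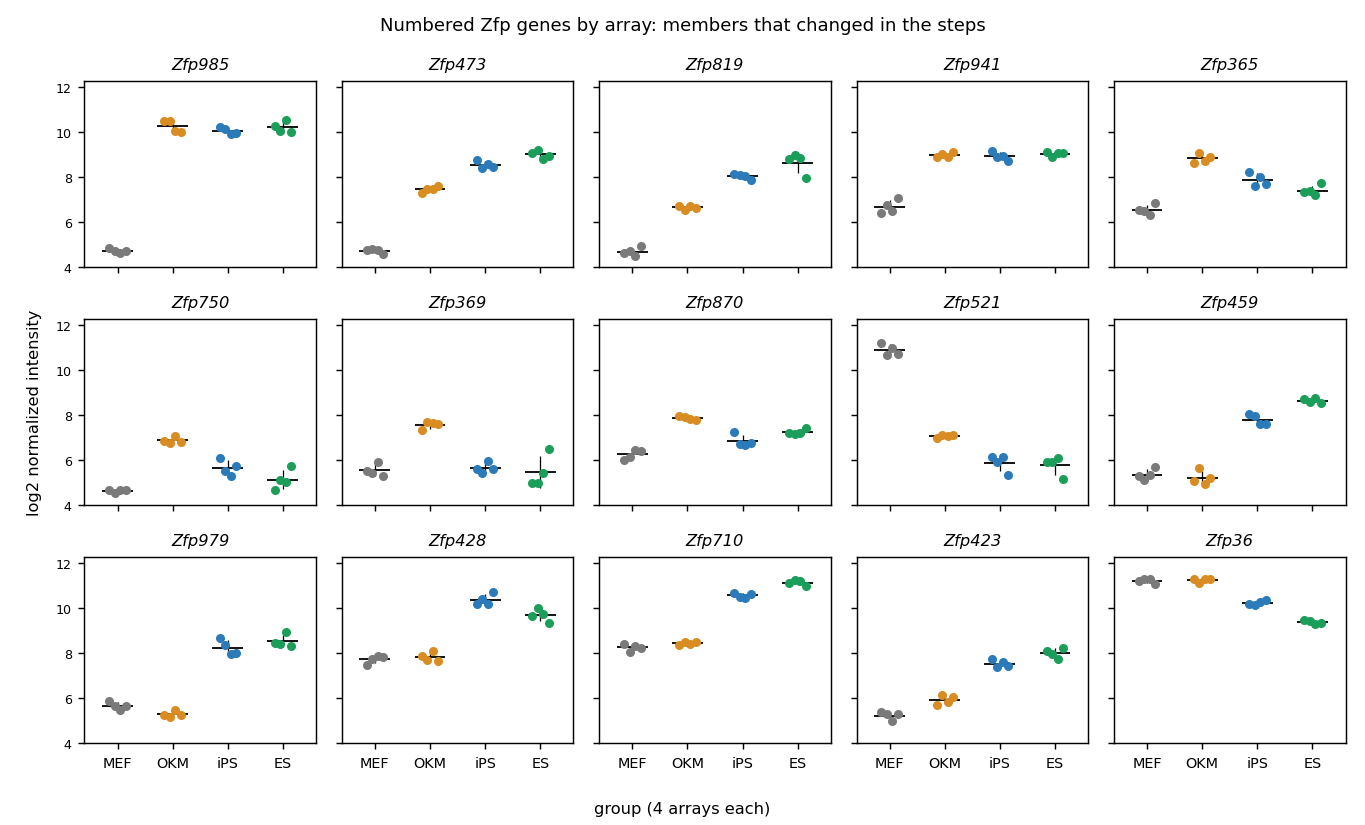
Log2 normalized intensity on every array for 15 members that changed in one of the steps, by group from MEF to ES, with points for arrays, a bar for the mean and a line for 1 SD (n = 4). Zfp985 is high from OKM cells on, Zfp473 and Zfp819 climb in both steps, Zfp750 and Zfp369 peak in OKM cells, Zfp521 is lower from OKM cells on, and Zfp459, Zfp979, Zfp428 and Zfp710 are higher in iPS and ES cells than in OKM cells and MEF.

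Of the other members that rose in OKM cells over MEF, Zfp692 and Zfp239 changed by 1.67 and 1.58, and Zfp930, Zfp704, Zfp184, Zfp760, Zfp64, Zfp219 and Zfp82 by 1.06 to 1.49. Zfp64, a DNA-binding zinc finger protein, had means of 11.30 ± 0.17 in OKM cells and 10.15 ± 0.12 in MEF (SD, n = 4 each), and its 2 other kept probes rose by 1.13 and 1.18. Zfp219, which partners Sox9 in cartilage cells, had 9.29 ± 0.10 in OKM cells and 8.19 ± 0.11 in MEF. Of the further kept probes of called genes in this comparison, 8 of 8 moved the same way as the brightest probe. This count goes by direction and not by size, and the further probe of Zfp386 moved by only -0.06.

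The largest fall was that of Zfp521, a many-fingered cofactor related to Zfp423 that is known from progenitor cells, where it restrains Ebf1. It read 6.98, 7.13, 7.06 and 7.13 in OKM cells against 11.21, 10.66, 10.99 and 10.72 in MEF, a change of -3.82 ± 0.20 (SE, adjusted p = 7.17e-12). No OKM array came near the MEF arrays, and a further kept probe fell by 1.81 on the log2 scale. Levels fell again in iPS cells, to 6.13, 5.95, 6.13 and 5.34, a change of -1.19 (adjusted p = 6.65e-05), though the further probe moved by only -0.13 in that step. In ES cells they were 5.93, 5.93, 6.12 and 5.18, which overlap the iPS arrays.
Zfp672, the neighbour of Zfp692, read 7.62, 7.76, 7.41 and 7.64 in OKM cells and 9.87, 9.76, 9.90 and 10.04 in MEF, a change of -2.29 ± 0.13 (SE, adjusted p = 2.62e-11). Zfp692 ran the other way, at 9.23, 9.19, 9.19 and 9.46 in OKM cells and 7.60, 7.65, 7.43 and 7.72 in MEF, a change of 1.67 ± 0.13 (SE, adjusted p = 2.45e-09). Neither gene's groups overlap.

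The remaining falls were smaller. Zfp286 was undetected on all 4 OKM arrays, at 4.52 ± 0.13 against 6.33 ± 0.13 in MEF (SD, n = 4 each), at least 1.60-fold lower. Beyond the 4 MEF arrays it was detected on 2 ES arrays only. It was thus kept among the members only through MEF, where it is high, and its fall is given as a description. It still counts among the 9 falls. Zfp91, a ubiquitin ligase of the non-canonical NF-kappa B pathway, had a mean of 7.91 ± 0.15 in OKM cells and 9.36 ± 0.10 in MEF, and fell by 1.45 on the log2 scale. Zfp467, known for its part in the choice between fat and bone fates, had 5.43 ± 0.09 in OKM cells and 6.78 ± 0.09 in MEF, and fell by 1.35. Zfp202 and Zfp46 fell by 1.42 and 1.21. The falls of Zfp90 (-1.05) and Zfp386 (-1.01) were close to the 2-fold line: Zfp90 gave -0.998 without MEF replicate 4 and Zfp386 -0.92 without MEF replicate 4 and -0.89 without OKM replicate 3, and both calls then ended. The further probe of Zfp386 moved by only -0.06, and the call of this gene also ended when its kept probes were averaged. All 12 measured fibroblast markers and all 5 measured macrophage and blood markers fell in the same comparison, with medians of -3.20 and -4.07, and their part in these falls was not tested.

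With no background correction 12 members were called in place of 26. The share of all genes under that setting is not given here. Zfp369, Zfp750, Zfp870 and Zfp819, then at 0.98, 0.90, 0.92 and 0.76, were among those that lost the call. With the adjusted p alone, 91 members passed (55.8%, against 70.5% of all genes).

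The second comparison asks what separated the induced pluripotent cells from the intermediate cells. In iPS cells over OKM cells, 9 members rose and 7 fell, 16 of 163 or 9.82%, against 13.2% of all genes (7.28% higher and 5.94% lower). The median change was -0.02 for the members and -0.02 for all genes. In the same step 9 of 11 pluripotency markers rose, with a median of 4.34 over the list, 2 of 12 fibroblast markers fell, with a median of -0.02, and 2 of 3 endothelial markers fell. Of 4 epithelial markers, 2 rose (Cdh1 and Krt18) and 1 fell. Their part in the members' changes was not tested.

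The largest rise in this step was that of Zfp979, a cluster neighbour of Zfp985. Its levels were 8.68, 8.36, 7.97 and 8.002 in iPS cells, against 5.27, 5.16, 5.50 and 5.26 in OKM cells, where it was undetected on all 4 arrays. The change was 2.96, at least 6.06-fold. MEF arrays read 5.88, 5.65, 5.51 and 5.68, with 1 of 4 detected, so that the earlier step, in which Zfp985 rose, showed no rise of Zfp979 (-0.38, adjusted p = 0.0378, under the 2-fold line). ES arrays gave 8.45, 8.42, 8.95 and 8.35, overlapping the iPS arrays. Outside the iPS and ES arrays, Zfp979 was detected on 1 array. It was thus kept among the members only through the arrays where it is high, and its rise is given as a description.
Zfp459 read 8.04, 7.99, 7.63 and 7.60 in iPS cells and 5.10, 5.65, 4.94 and 5.20 in OKM cells, a change of 2.59 or at least 4.48-fold. It was undetected on all OKM and all MEF arrays (5.29, 5.12, 5.36 and 5.71 in MEF). It was thus kept among the members only through the iPS and ES arrays, where it is high, and its rise is given as a description. ES levels of 8.72, 8.60, 8.77 and 8.56 all exceed the iPS arrays, a difference of -0.84 for iPS minus ES (adjusted p = 0.000135) that is under 2-fold. Zfp345 also passed from undetected on all 4 OKM arrays to detected on all 4 iPS arrays, with means of 6.25 ± 0.10 in iPS cells and 5.02 ± 0.16 in OKM cells (SD, n = 4 each), at least 1.51-fold. MEF arrays did not detect it, so it too was kept only through iPS and ES arrays, and its rise is a description. Zfp979, Zfp459 and Zfp345 still count among the 9 rises.

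Zfp428 and Zfp710 were detected on every array, and their OKM and MEF arrays overlap. Zfp428 read 10.21, 10.42, 10.19 and 10.74 in iPS cells against 7.90, 7.72, 8.09 and 7.65 in OKM cells, a change of 2.55 ± 0.15 (SE, adjusted p = 2.19e-10), but its further kept probe moved by only 0.36. Zfp710 read 10.70, 10.52, 10.47 and 10.62 in iPS cells against 8.38, 8.52, 8.42 and 8.52 in OKM cells, a change of 2.12 ± 0.09 (SE, adjusted p = 2.93e-12). In MEF, Zfp428 gave 7.48, 7.76, 7.87 and 7.83 and Zfp710 gave 8.41, 8.08, 8.32 and 8.23.
Zfp423, which binds Ebf and Smad proteins and marks cells committed to the fat lineage, read 7.76, 7.38, 7.60 and 7.44 in iPS cells and 5.72, 6.15, 5.86 and 6.06 in OKM cells. It rose by 1.60 ± 0.13 (SE, adjusted p = 1.60e-08), and the further kept probe by 1.43. MEF arrays, with 5.38, 5.29, 4.99 and 5.31, did not detect it. Zfp819 and Zfp473 rose for the second time, by 1.37 ± 0.17 and 1.08 ± 0.11 (SE, adjusted p = 2.23e-06 and 1.85e-07). Zfp446 rose by 1.00 and lost the call without any of 4 single arrays, at 0.99 without OKM replicate 2, 0.88 without OKM replicate 3, 0.96 without iPS replicate 1 and 0.89 without iPS replicate 2.

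Zfp36, known as tristetraprolin, binds AU-rich elements in mRNAs such as that of TNF and promotes their decay. It read 10.19, 10.17, 10.30 and 10.36 in iPS cells against 11.32, 11.14, 11.28 and 11.31 in OKM cells, with no overlap and a change of -1.01 ± 0.08 (SE, adjusted p = 1.83e-08). MEF gave 11.20, 11.29, 11.28 and 11.08, overlapping the OKM arrays (OKM minus MEF 0.05, adjusted p = 0.605), and ES cells gave 9.47, 9.43, 9.30 and 9.37, below the iPS arrays. The order of the group means was thus OKM and MEF, not separated beyond their spread, then iPS, then ES. Since the OKM to iPS difference sits on the 2-fold line, its call ended at -0.99 without OKM replicate 4, -0.99 without OKM replicate 1, -0.99 without iPS replicate 1 and -0.98 without iPS replicate 2. Zfp524 fell by 1.03, and Zfp810 by 1.04, which lost its call at -0.90 without iPS replicate 3, -0.99 without OKM replicate 2 and -0.94 without iPS replicate 2. Zfp369, Zfp750, Zfp521 and Zfp870, given above, make up the rest of the falls.

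With no background correction 4 members were called, and with a larger offset of 50 added after correction 7, in place of 16. The shares of all genes under these settings are not given here. Without the correction Zfp369 gave -0.95, Zfp423 0.82 and Zfp819 0.84, and these calls were lost. With the adjusted p alone, 68 members passed (41.7%, against 54.8% of all genes).

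The third comparison sets the induced pluripotent cells beside ES cells. In iPS cells over ES cells, 17 members were higher and 8 lower, 25 of 163 or 15.3%, against 18.5% of all genes (11.2% higher and 7.28% lower). The median change was 0.08 for the members and -0.04 for all genes. Strain and line move with this difference, and so do markers of several cell types. Of 12 measured fibroblast markers 5 were called, all higher in iPS cells (Thy1, Dcn, Twist1, Twist2 and Fbln2), and the median difference of the 12 was 0.81. Of 11 pluripotency markers 4 were lower in iPS cells, with a median of -0.50 over the 11. Epithelial markers summed to 2316 to 3035 in iPS cells, against 1629 to 1939 in ES cells, with Krt8, Krt18 and Krt19 higher and Cdh1 lower. Macrophage and blood markers summed to 573 to 695 in iPS cells, against 2372 to 4181 in ES cells, with a log2 difference of -2.61 for Lyz2 and C1qa, C1qb and C1qc undetected on all arrays of both groups. Of 3 endothelial markers Tek was higher in iPS cells. The part of these cell types in the result was not tested.

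Several members with higher levels in iPS cells were higher still in MEF. Zfp672 read 7.57, 7.53, 7.56 and 7.13 in iPS cells against 5.09, 5.07, 5.34 and 4.74 in ES cells, where it was undetected on all 4 arrays, a difference of 2.39 ± 0.13 (SE, adjusted p = 5.40e-11) or at least 3.44-fold. The iPS and OKM arrays overlap for this gene (-0.16, adjusted p = 0.319). Zfp46 gave 10.36, 10.09, 10.15 and 9.83 in iPS cells and 8.02, 7.78, 8.31 and 7.21 in ES cells, a difference of 2.28 ± 0.17 (SE, adjusted p = 3.43e-09). Its MEF arrays stood at 11.68, 11.69, 11.71 and 11.75, and its OKM arrays at 10.50, 10.60, 10.39 and 10.50.
Zfp362 had the largest difference of the members, with 11.01, 10.69, 10.70 and 10.27 in iPS cells and 8.25, 8.07, 8.64 and 8.01 in ES cells, 2.42 ± 0.15 (SE, adjusted p = 3.46e-10). Its OKM levels of 11.51, 11.48, 11.52 and 11.18 overlap the MEF levels of 11.48, 11.35, 11.50 and 11.46. Zfp608, which represses the Rag genes in thymocytes, gave 8.59, 8.26, 8.18 and 7.97 in iPS cells and 6.57, 6.25, 6.45 and 5.16 in ES cells, a difference of 2.14 ± 0.22 (SE, adjusted p = 2.16e-07). In MEF and OKM cells it had means of 9.64 ± 0.08 and 8.78 ± 0.07 (SD, n = 4 each), so its group means run down in the order MEF, OKM, iPS and ES, although the iPS minus OKM difference of -0.53 did not pass the test (adjusted p = 0.0507).

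Zfp386 read 7.17, 7.26, 7.43 and 7.10 in iPS cells and 5.24, 5.16, 4.79 and 4.76 in ES cells, where this probe was undetected on all 4 arrays, a difference of 2.25 ± 0.14 (SE, adjusted p = 5.14e-10) or at least 2.98-fold. A further probe of this gene, detected on 2 of the ES arrays, differed by only 0.42, so the size depends on the probe. A pair of neighbours on chromosome 7 shared a pattern. Zfp93 gave 6.35, 6.36, 6.21 and 6.67 in iPS cells and 4.71, 4.62, 4.75 and 4.64 in ES cells, and Zfp235 gave 6.28, 6.14, 6.42 and 6.19 in iPS cells and 4.45, 4.74, 4.49 and 4.56 in ES cells. Neither was detected on any ES array, and the differences were 1.71 and 1.70 (adjusted p = 5.01e-09 and 3.73e-10), at least 1.66-fold and at least 1.51-fold. The 2 further probes of Zfp93 differed by 1.47 and 1.75. The other 10 higher members differed by 1.10 to 1.45, among them Zfp472 (1.45) and Zfp768 (1.29). Of these 10, Zfp160, Zfp397 and Zfp612 were undetected on all 4 ES arrays, and their ratios are at least 1.72-fold, at least 2.13-fold and at least 1.55-fold.

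Of the 8 members lower in iPS cells than in ES cells, Zfp738 and Zfp367 had been detected on the 4 ES arrays and on no other array. Both were thus kept among the members only because they are high in ES cells, which fixed the direction of their difference, and their values are given as a description with no test. They still count among the 8 lower members and the 25 called. Zfp738 read 4.60, 4.54, 4.84 and 4.42 in iPS cells, undetected on all 4 arrays, against 6.46, 6.25, 6.83 and 7.27 in ES cells, at least 2.25-fold lower. MEF (4.69, 5.08, 4.81 and 4.66) and OKM cells (5.06, 4.47, 4.50 and 4.50) were undetected on all their arrays too. Zfp367 had means of 4.85 ± 0.24 in iPS cells and 6.31 ± 0.36 in ES cells (SD, n = 4 each), at least 1.71-fold lower.
Zfp35 was detected in iPS cells too, at 7.02, 6.54, 6.63 and 6.74 against 8.35, 8.65, 8.16 and 7.92 in ES cells, a difference of -1.54 ± 0.16 (SE, adjusted p = 2.40e-07). The other 5 lower members differed by -1.01 to -1.09 and lost their calls when a single array was left out. Zfp791 was undetected on all 4 iPS arrays, at least 1.38-fold lower, and was detected on the 4 ES arrays and 1 OKM array. Like Zfp738 and Zfp367, it was thus kept only through ES cells, where it is high. Its difference is given as a description, and it still counts among the 8 lower members. Without the array named, Zfp414 gave -0.99 (ES replicate 2), Zfp791 -0.98 (iPS replicate 3), Zfp2 -0.96 (ES replicate 1) and -0.94 (iPS replicate 4), and Zfp653 -0.96 (ES replicate 1), -0.89 (iPS replicate 2) and -0.90 (ES replicate 2). Zfp184 gave -0.95 without ES replicate 5, -0.98 without ES replicate 4, -0.91 without iPS replicate 4 and -0.99 without iPS replicate 2.

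**Figure D3:**
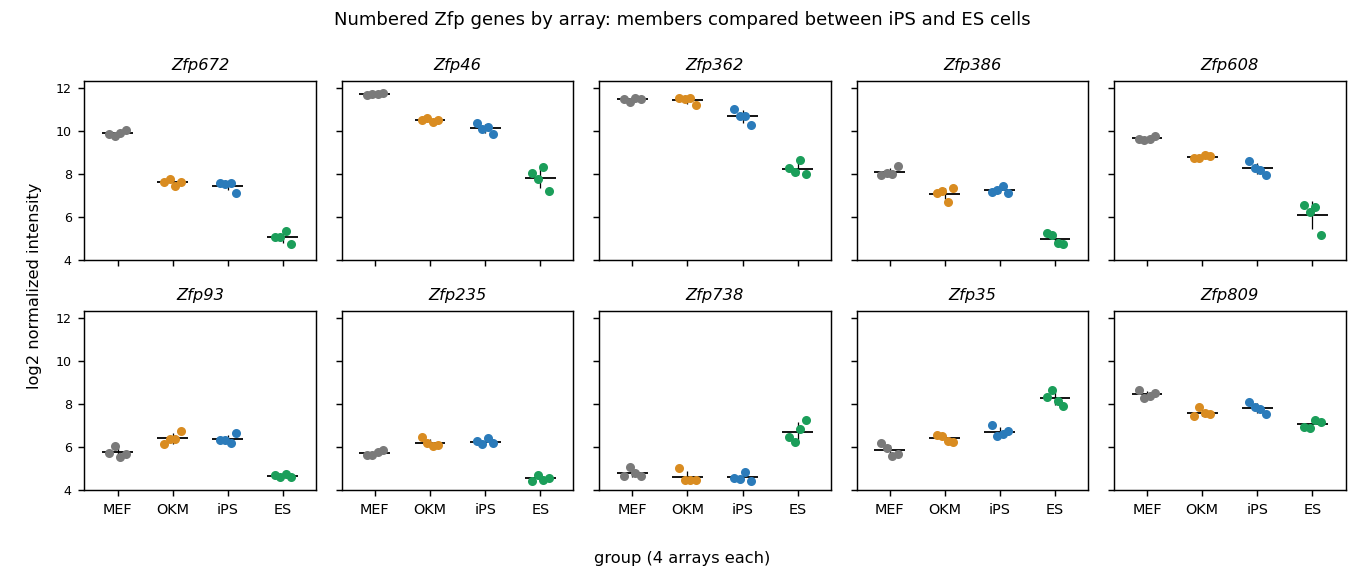
Log2 normalized intensity on every array for 10 members compared between iPS and ES cells, by group from MEF to ES, with points for arrays, a bar for the mean and a line for 1 SD (n = 4). For Zfp672, Zfp46, Zfp362, Zfp386 and Zfp608 the iPS arrays lie between MEF and ES, Zfp93 and Zfp235 are undetected in ES cells, and Zfp738 is detected in ES cells alone.

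In the authors' own normalized values 38 members were called in this comparison, with no background correction 7 and with the larger offset 10, in place of 25. The shares of all genes under these settings are not given here. Zfp386, at 0.96, and Zfp35, at -0.99, lost their calls with no background correction. With the adjusted p alone, 106 members passed (65.0%, against 61.9% of all genes).

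The start and the embryonic stem cells stood furthest apart. In ES cells over MEF, 29 members rose and 37 fell, 66 of 163 or 40.5%, against 48.5% of all genes (24.2% higher and 24.3% lower), with a median of -0.02 for members and 0.04 for all genes. All 12 fibroblast markers and all 5 macrophage and blood markers fell and all 11 pluripotency markers rose in the same comparison, and their part in it was not tested. The largest rises were those of Zfp985 (5.50, at least 22.2-fold), Zfp473 (4.28, at least 9.63-fold), Zfp819 (3.94, at least 7.41-fold), Zfp459 (3.29, at least 7.49-fold) and Zfp710 (2.88), and the largest falls those of Zfp521 (-5.11), Zfp672 (-4.83, at least 18.7-fold), Zfp46 (-3.88), Zfp608 (-3.54) and Zfp362 (-3.20). In iPS cells over MEF, 24 rose and 13 fell, 37 of 163 or 22.7%, against 36.5% of all genes. In OKM cells over ES cells, 36 were higher and 23 lower, 59 of 163 or 36.2%, against 34.5% of all genes. These comparisons share their arrays with those above and are no separate evidence. Over the 163 members, array levels correlated at 0.889 on average between iPS and ES cells, 0.914 between iPS and OKM cells, 0.841 between OKM cells and MEF, and 0.631 between ES cells and MEF. These coefficients are across genes, which are not independent replicates, and differences between probes make up much of them.

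Some members have a role known from other work. Of 42 numbered genes listed for a known role, 19 were measured. In OKM cells over MEF, 5 of the 19 rose (Zfp64, Zfp369, Zfp219, Zfp819 and Zfp365) and 2 fell (Zfp521 and Zfp90), 36.8% of the list against 31.9% of all genes. In iPS cells over OKM cells 2 rose (Zfp423 and Zfp819) and 3 fell (Zfp36, Zfp369 and Zfp521), 26.3% against 13.2%. In iPS over ES cells the largest difference among the 19 was 0.86, for Zfp36, under the 2-fold line.
Zfp281, a GC-box binding factor of the pluripotency network known to restrain Nanog, was lowest in OKM cells. Its levels there were 8.01, 7.95, 7.81 and 7.80 against 8.55, 8.32, 8.32 and 8.36 in MEF, and iPS and ES cells gave 8.75 ± 0.16 and 8.78 ± 0.14 (SD, n = 4 each). The differences, -0.49 for OKM minus MEF (adjusted p = 0.000305) and 0.85 for iPS minus OKM (adjusted p = 1.67e-06), passed the test but not the 2-fold line.
Zfp809, the KRAB protein that recruits Trim28 to murine leukemia virus DNA in embryonal cells, read 8.64, 8.26, 8.37 and 8.53 in MEF, 7.45, 7.87, 7.57 and 7.54 in OKM cells, 8.11, 7.85, 7.79 and 7.56 in iPS cells and 6.94, 6.91, 7.28 and 7.17 in ES cells. It was thus lowest in ES cells and highest in MEF, with an ES minus MEF change of -1.37 ± 0.13 (SE, adjusted p = 2.41e-08). Zfp207 (BuGZ), which binds Bub3 at the mitotic spindle, had 10.15 ± 0.07 in MEF, 10.02 ± 0.05 in OKM cells, 10.46 ± 0.14 in iPS cells and 10.83 ± 0.16 in ES cells (SD, n = 4 each), with differences under 2-fold. Zfp106, an RNA-binding protein of muscle and motor neurons, rose by 1.55 in ES cells over MEF. Zfp131, Zfp326, Zfp335, Zfp516 and Zfp593 differed by less than 2-fold in OKM cells over MEF, iPS over OKM cells, iPS over ES cells and ES cells over MEF.

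Neighbouring members shared a course in some runs and differed in others. Of the 163 members, 82 lie next to another Zfp gene with no other protein-coding gene between them and 81 stand alone, by gene order in the RefSeq table. Chromosome 7 holds 44 members, chromosome 17 holds 15 and chromosome 13 holds 13. In OKM cells over MEF, 9 of 82 clustered members were called (10.98%) and 17 of 81 lone ones (20.99%), against 31.9% of all genes. In iPS over OKM cells the shares were 9.76% and 9.88%, against 13.2% of all genes, in iPS over ES cells 15.9% and 14.8%, against 18.5%, and in ES cells over MEF 39.0% and 42.0%, against 48.5%. The difference between clustered and lone members was not tested.
In the chromosome 13 run, the longest with 20 Zfp genes of which 7 were measured, Zfp459 rose in the second step and Zfp738 was detected in ES cells alone, while Zfp58 had means between 6.12 and 6.39 in all 4 groups. On chromosome 4, Zfp985 and Zfp979 have a measured neighbour, Zfp933, with means of 6.10 in MEF, 6.64 in OKM cells, 6.07 in iPS cells and 6.07 in ES cells. On chromosome 7, Zfp93 and Zfp235 shared their low ES levels, whereas Zfp94 of the same run had its highest mean, 8.98, in ES cells. In the other chromosome 7 run shown, Zfp30, Zfp420 and Zfp27 fell by 1.18, 1.25 and 1.30 in ES cells over MEF and Zfp790 gave -0.998, under the 2-fold line, while Zfp82 rose by 1.48.

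**Figure D4:**
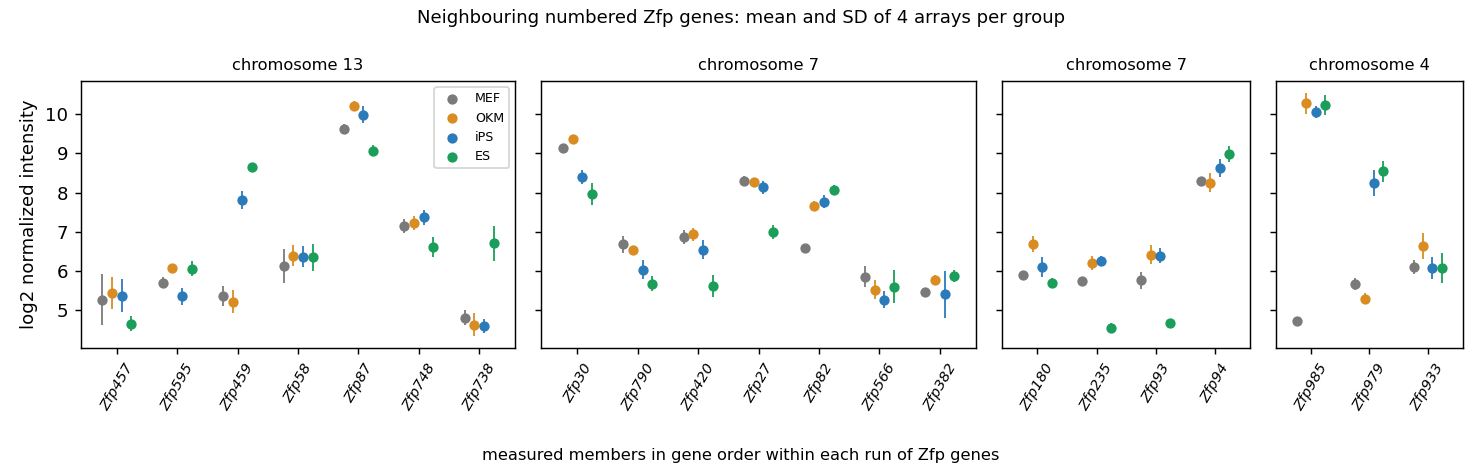
Mean log2 normalized intensity with 1 SD (n = 4) in MEF, OKM, iPS and ES cells for the measured members of 4 runs of neighbouring Zfp genes, on chromosome 13, on chromosome 7 (2 runs) and on chromosome 4. On chromosome 4, Zfp985 is high from OKM cells on, Zfp979 from iPS cells on, and Zfp933 stays between 6.07 and 6.64, while on chromosome 7 Zfp93 and Zfp235 are both lowest in ES cells, as are Zfp30, Zfp790, Zfp420 and Zfp27.

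KRAB proteins act through partners, and the called changes among them were upward in the comparisons named here. Of 29 listed co-repressor genes 18 were measured. In OKM cells over MEF, 3 were called, all higher (16.7%, against 31.9% of all genes): Uhrf1 by 1.89, Dnmt3b by 1.62 and Dnmt1 by 1.36. In iPS over OKM cells, 4 were called, all higher (22.2%, against 13.2%): Dnmt3l by 8.87, Dnmt3b by 4.35, Smarcad1 by 2.08 and Trim28 by 1.09. Trim28 itself had 12.50 ± 0.11 in MEF, 12.77 ± 0.15 in OKM cells, 13.86 ± 0.16 in iPS cells and 14.37 ± 0.23 in ES cells (SD, n = 4 each). Setdb1 had 8.07 ± 0.09 in MEF, 8.64 ± 0.14 in OKM cells, 9.01 ± 0.17 in iPS cells and 9.24 ± 0.17 in ES cells. In iPS over ES cells, 1 of the 18 was called (5.56%, against 18.5% of all genes), Dnmt3b at 1.26, and in ES cells over MEF 10 were called, all higher (55.6%, against 48.5%). The list includes DNA methylation genes known from pluripotent cells on their own account, so its counts do not concern KRAB proteins alone.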

How the data were processed

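Intensities and detection p-values per probe were taken from the authors' non-normalized table of 25697 probes on 16 arrays, which GenomeStudio wrote, per the submitters' processing notes, with no version given. The authors also deposited a normalized table of intensities, whose steps are not given in the sources used here; it served as an alternative. The 4 arrays per group limit the precision.

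The intensities were background-corrected by normexp fitted from the detection p-values (offset 16), quantile normalized and put on the log2 scale with limma 3.58.1 in R 4.3.3. Probes that passed a detection limit of 0.01 on 4 or more arrays were kept (13782), and the probe with the highest mean stood for each of 9455 genes, named through the platform annotation; 1719 probes with several symbols or none were left out. Current RefSeq symbols differed from the annotation for 0 of the 163 members. One mean per group was fitted over all 16 arrays (12 residual degrees of freedom, prior 4.84), with empirical Bayes variances, two-sided tests and Benjamini-Hochberg adjustment over the 9455 genes. Differences are the first-named group minus the second.

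The members and lists were chosen with earlier results of these data known, and no list was tested as a set. Members named are, for the 3 main comparisons, the 10 largest called rises and the 10 largest called falls without overlap between the arrays, the 5 largest of the secondary ones, members with the widest range, and members of a list of 42 with known roles; cluster neighbours and other called members are named beside them after their values were seen. Protein domains were not analysed here. Promoters were searched and aligned in Python 3.11.15 with Biopython 1.88. In simulated data for iPS over OKM cells (9455 genes, 50 changed per fold), the test called 0% of 1.5-fold, 52% of 2-fold, 96% of 3-fold and 100% of 4-fold changes, with 0 false calls. The changed genes were drawn only from genes above a set mean level. These shares therefore do not cover dim members. A call also needs an estimate of at least 2-fold. The shares at 1.5-fold and 2-fold and the 0 false calls follow largely from that line.

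Alternatives were no background correction, an offset of 50, cyclic loess, median scaling, the authors' normalized table, other detection filters, other thresholds, other probe choices, array weights, blocks for replicate number or place in the table, subsets of arrays, and each array left out in turn.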

Additional observations from a re-analysis of the deposited data

Results flagged for a closer look

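Among the 112 groups of 4 arrays printed for 28 members, 9 held an array that stands apart from its group, by the gap to the nearest array as a share of the group's whole range. Chance sets about 1 in 20 groups apart in this way, and at this group size a very tight group is enough. For Zfp750, MEF replicate 2 read 4.54 and the nearest MEF array 4.68, a gap of 0.909 of the range, all below the detection limit. For Zfp738, OKM replicate 1 read 5.06 and the nearest 4.50 (0.940), also undetected. OKM replicate 4 was apart for Zfp692, at 9.46 with the nearest at 9.23 (0.844), and for Zfp362, at 11.18 with the nearest at 11.48 (0.878). In iPS cells, replicate 4 was apart for Zfp692, at 9.34 with the nearest at 9.10 (0.893), and for Zfp672, at 7.13 with the nearest at 7.53 (0.898), and replicate 1 for Zfp870, at 7.27 with the nearest at 6.77 (0.839). In ES cells, replicate 4 was apart for Zfp979, at 8.95 with the nearest at 8.45 (0.833), and for Zfp207, at 10.60 with the nearest at 10.89 (0.897). None of these arrays closes the gap between the groups that the called changes of the same gene compare.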

How the results depend on the processing

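Counts of called members follow in the order OKM over MEF, iPS over OKM, iPS over ES, ES over MEF, iPS over MEF and OKM over ES, where the report has 26, 16, 25, 66, 37 and 59. With no background correction they were 12, 4, 7, 34, 18 and 23. An offset of 50 gave 7 in iPS over OKM and 10 in iPS over ES, and the authors' normalized values gave 38 in iPS over ES. For these settings, and for the arrays left out and the replicate block below, the shares of all genes are not given here. Whether members moved more than other genes cannot be read from those counts. The adjusted p alone gave 91, 68, 106, 121, 102 and 120, where the shares of all genes were 70.5%, 54.8%, 61.9%, 81.7%, 76.3% and 73.9%. A 1.5-fold line gave 60, 35 and 64 in the first 3 comparisons (50.9%, 30.9% and 38.3% of all genes) and 68 in iPS over MEF (57% of all genes). Leaving out each array in turn gave 25 to 27, 12 to 15, 23 to 25, 65 to 68, 33 to 39 and 56 to 59. Deviations of same-numbered arrays correlated at 0.55, 0.30 and 0.44 in 3 pairs of OKM cells and MEF and at 0.01 in the other, where 5 of 8 arrays correlated best with their own number. In the other comparisons the lowest correlations were -0.26, -0.29, -0.42, -0.38 and -0.32 and the highest of all 0.11. As no comparison had every pair above 0.1, the numbers were not taken to pair the samples. A replicate block gave 26, 16, 24, 67, 37 and 56. The 155 called changes of named members kept their direction under every alternative tried. Of their 3875 repeats 3643 kept the call and 232 lost it. The cause of these losses was not tested. Repeats with the adjusted p alone or the 1.5-fold line use the same fit with a looser line. They could only keep a call and its direction, so that part of the count was fixed in advance. Repeats on only the arrays compared, or with place in the table as a block, keep the same group differences, so their direction was fixed too. Current symbols and other detection filters reuse the same values wherever the probe stays the same. Signals near background limit these data: 32 members were undetected on all arrays of a group.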

Other observations

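Other zinc finger families measured on the same arrays are small. Of 16 Zbtb genes, 1 rose and 1 fell in OKM cells over MEF (12.5%, against 31.9% of all genes). Among 4 Zscan genes, Zscan10, known as a factor of pluripotent cells, had means of 4.48 in MEF, where it was undetected on all 4 arrays, 7.29 in OKM cells, 9.95 in iPS cells and 10.37 in ES cells. It rose by 2.81 in OKM cells over MEF and by 2.65 in iPS over OKM cells. Further kept probes of called members were counted by probe and not by gene, and by direction and not by size. They moved the same way for 4 of 4 in iPS over OKM cells, 4 of 4 in iPS over ES cells and 14 of 15 in ES cells over MEF. The counts were 11 of 11 in iPS cells over MEF and 11 of 12 in OKM over ES cells. Sizes could differ within the same direction: in ES cells over MEF, the brightest probe of Zfp330 rose by 1.43 and its further probe by 6.78. For Zfp277, a Polycomb partner at the Ink4a/Arf locus, the brightest probe rose by 1.08 in ES cells over MEF and the further probe gave -0.41. For Zfp704, the brightest probe was higher by 1.25 in OKM over ES cells and the further probe gave -0.63.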
